A study of Mus musculus with 8 samples.

Results

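The genes of cholesterol and fatty acid synthesis were followed over 8 arrays of mouse liver RNA. The set holds 33 genes of the 20679 measured. It comprises 19 enzymes that carry acetyl-CoA to cholesterol and the isoprenoids, 6 genes of sterol sensing and transport, and 8 enzymes that make and desaturate fatty acids. Members were found by gene symbol, and each gene is represented by its probe set with the highest mean log2 intensity over the 8 arrays. Of the 33 genes, 32 carried their present symbol and Msmo1 was listed under the older symbol Sc4mol. The probe sets used for Idi1 and Acaca each name 2 genes, so those signals may be shared.

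The samples were sorted collagen-producing and mesothelial cells of adult mice of C57Bl6 background, with 1 array for each of 8 groups and no replicates. Biliary fibrosis was represented by vitamin A-positive hepatic stellate cells (HSC), the pericytes of the liver sinusoid; by mesothelial cells (MC) bearing GPM6A, from the organ's surface layer; and by portal fibroblasts (PF), which surround the bile ducts. PF of sham-operated mice, and HSC, MC and vitamin A-negative GFP-positive cells (VitA-GFP+ cells) with no injury named, were the other sorted groups. All 7 sorted groups came from Col1a1-GFP transgenic mice, in which the reporter marks collagen I expression, and the eighth group was whole liver of the wild type. The labels give no number of animals, no procedure for the biliary fibrosis and no gate for PF, and only PF have a sham array. With single arrays there is no error, test or p-value, so every difference below is one between 2 arrays, on the log2 scale.

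Cholesterol is built from acetyl-CoA through the mevalonate pathway, whose products also feed isoprenoids for protein prenylation, and then through squalene and lanosterol. Transcription of these enzymes is driven by SREBP2, and that of the fatty acid enzymes mainly by SREBP1c. SCAP escorts both factors out of the endoplasmic reticulum when sterols are low, and the INSIG proteins hold them back when sterols are high. Hepatocytes are the main site of both pathways in the liver, and stellate cells store retinyl esters in lipid droplets.

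Promoter sequence is shown for 5 members because SREBPs act there beside the factor NF-Y, and because these members span the patterns described below. Hmgcs1 makes HMG-CoA, from which mevalonate is formed. Cyp51, Acss2 and Elovl6 were among the members higher in fibrotic HSC, and Fasn is the fatty acid synthase. The windows run from 250 bases before to 50 after the start in RefSeq (GRCm38.p6), read 5′ to 3′ on the strand of the gene. They lie at chr13:119690101-119690400 (plus strand) for Hmgcs1, chr5:4104648-4104947 (minus strand) for Cyp51, chr2:155517793-155518092 (plus strand) for Acss2, chr11:120824498-120824797 (minus strand) for Fasn and chr3:129532136-129532435 (plus strand) for Elovl6. Capitals mark matches on either strand to TCACNCCAC (the sterol regulatory element), TCACNTGA (an E-box-like SREBP element), CCAAT (the NF-Y box, ATTGG on the other strand) or CACGTG (the E-box).
Hmgcs1: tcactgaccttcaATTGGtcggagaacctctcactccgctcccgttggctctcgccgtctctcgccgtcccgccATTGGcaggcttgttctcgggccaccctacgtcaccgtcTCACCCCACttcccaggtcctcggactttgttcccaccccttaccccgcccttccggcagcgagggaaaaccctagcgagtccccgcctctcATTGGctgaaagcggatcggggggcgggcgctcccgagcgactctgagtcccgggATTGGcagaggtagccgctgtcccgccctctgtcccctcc
Cyp51: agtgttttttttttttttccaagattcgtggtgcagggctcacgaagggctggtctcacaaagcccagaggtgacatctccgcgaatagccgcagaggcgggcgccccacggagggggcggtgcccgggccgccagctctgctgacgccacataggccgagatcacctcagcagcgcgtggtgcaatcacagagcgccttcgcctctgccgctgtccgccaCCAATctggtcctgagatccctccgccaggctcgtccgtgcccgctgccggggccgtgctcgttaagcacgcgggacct
Acss2: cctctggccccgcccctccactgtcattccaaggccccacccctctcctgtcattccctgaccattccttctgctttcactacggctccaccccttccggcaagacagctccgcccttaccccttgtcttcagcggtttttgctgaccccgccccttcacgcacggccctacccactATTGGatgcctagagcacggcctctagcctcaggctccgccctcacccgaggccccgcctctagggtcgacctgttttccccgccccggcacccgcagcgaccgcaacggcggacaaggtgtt
Fasn: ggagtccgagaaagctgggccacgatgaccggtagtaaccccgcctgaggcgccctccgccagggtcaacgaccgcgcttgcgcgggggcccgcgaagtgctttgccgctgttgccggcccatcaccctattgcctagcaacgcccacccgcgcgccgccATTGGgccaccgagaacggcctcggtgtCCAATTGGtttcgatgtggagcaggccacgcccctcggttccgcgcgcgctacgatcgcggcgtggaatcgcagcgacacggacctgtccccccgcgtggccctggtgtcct
Elovl6: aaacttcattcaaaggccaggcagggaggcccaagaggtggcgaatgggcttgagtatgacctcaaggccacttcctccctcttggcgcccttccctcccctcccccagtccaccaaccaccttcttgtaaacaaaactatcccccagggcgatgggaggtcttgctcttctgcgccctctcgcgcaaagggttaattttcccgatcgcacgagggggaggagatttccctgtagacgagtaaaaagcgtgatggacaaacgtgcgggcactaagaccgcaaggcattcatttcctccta
Hmgcs1 held 1 match to the sterol regulatory element and 4 to the NF-Y box. Fasn had 3 NF-Y matches, of which 2 share letters because CCAATTGG reads as the box on both strands. Cyp51 and Acss2 held 1 NF-Y match each, and Elovl6 held no match in this window.

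Of the 33 members, 27 had a promoter entry, and Sqle, Fdft1, Fdps, Scd1, Scd2 and Stard4 did not. The NF-Y box occurred in 23 of the 27 (85.2%), against 41.1% of all 27025 genes in the promoter table. The E-box was present in 5 of the 27 (18.5%), against 8.09% of all genes. TCACNCCAC occurred in Hmgcs1 alone, that is in 3.70% of the members and 1.44% of all genes. TCACNTGA occurred in Insig2 alone among members, also 3.70%, against 4.78% of all genes, and where its N is G the match holds the E-box as well. Genes with several start windows had more chances of a match, and 6 members had more than 1 window. These counts describe letters in fixed windows.

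The arrays were alike in overall brightness, with medians from 39.62 to 51.22 over non-control probe sets. Sample codes fall into 3 series, and the HSC and MC fibrosis pairs each cross 2 of them. The ratio of 3′ to 5′ Gapdh signal, a measure of RNA integrity and amplification, was 5.68 to 13.8 on the arrays of fibrotic cells and sham PF, against 1.42 to 2.01 on the other 4. Xist was high and the Y-linked Ddx3y low on the sham PF and whole liver arrays, with the reverse on 5 others, and MC with no injury named were high in both (log2 levels 11.41 and 9.67). The PF and MC pairs therefore differ in this respect and the HSC pair does not. Summed HSC marker intensity was 51415 in fibrotic HSC and 79764 in HSC with no injury named, and at most 16779 on any other array. Mesothelial markers summed to 37574 in fibrotic MC and 61206 in MC with no injury named. Portal fibroblast markers did not set fibrotic PF apart: they summed to 24901 in fibrotic PF and 47830 in sham PF, and to 25356 in MC with no injury named and 39884 in VitA-GFP+ cells.

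All 33 members were at or above the array median in fibrotic HSC, fibrotic PF, VitA-GFP+ cells and whole liver, and 28 of them were so on every array. Whole liver had the highest level for 28 of 33 members, among them 18 of the 19 sterol enzymes. HSC with no injury named had the lowest level for 14 members, 10 of them sterol enzymes, and MC with no injury named for 8. Among the 7 sorted arrays, fibrotic PF were highest for 10 members, MC with no injury named for 8 and sham PF for 5. In bulk RNA such as this, fewer cells of a type and less RNA per cell cannot be told apart. The summed intensity of the 19 sterol enzymes was 11458 in fibrotic HSC against 5643 in HSC with no injury named, 14918 in fibrotic MC against 13731 in MC, and 17930 in fibrotic PF against 15660 in sham PF. It was 10881 in VitA-GFP+ cells and 67433 in whole liver. Such sums of linear values weigh the brightest probe sets most. Hmgcs1, the brightest of the 19 on every array, had log2 levels of 12.57 in fibrotic PF against 13.04 in sham PF. The 8 fatty acid enzymes summed to 14762 in fibrotic HSC against 9634 in HSC, to 14406 in fibrotic MC against 11753 in MC, and to 15292 in fibrotic PF against 15068 in sham PF. Their sums were 11190 in VitA-GFP+ cells and 31282 in whole liver, and whole liver stood further above the sorted cells in the sterol sum than in the fatty acid sum.

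**Figure D1:**
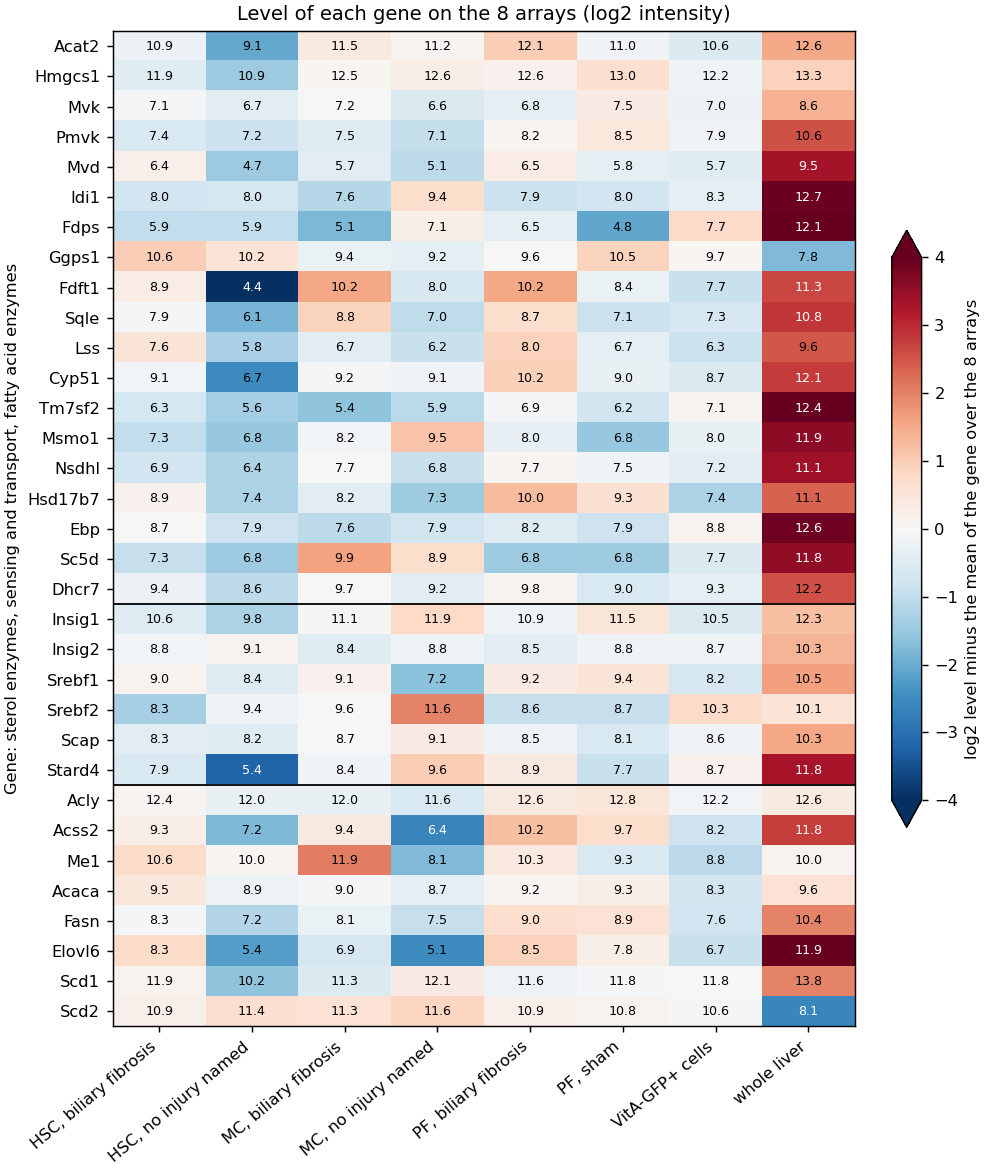
Log2 intensity of the 33 genes (rows, grouped by role) on the 8 arrays (columns, 1 array each). The printed number is the level, and the colour is the level minus the mean of that gene over the 8 arrays. The whole liver column is the reddest for 28 genes, with Ggps1 and Scd2 lowest there, and the column of HSC with no injury named is bluest for 14.

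Against whole liver, the sorted cells with no injury named had far lower levels of most members. In HSC the median log2 difference over the 33 members was -3.60, against -0.06 over all genes. A gene is counted here when it differs by at least 2 on the log2 scale (4-fold) and reaches the array median where it is higher. By that rule 25 members were lower and 2 higher in HSC, where 11.0% of all genes were lower and 8.54% higher. In VitA-GFP+ cells the median was -2.95, with 21 members lower and 1 higher, where 7.26% of all genes were lower and 10.5% higher. In MC it was -2.91, with 20 lower and 1 higher, where 11.4% of all genes were lower and 8.78% higher. At 2-fold, 27 members were lower and 2 higher in HSC, where 20.4% of all genes were lower and 16.1% higher. The 2-fold rule gave 29 lower and 2 higher in VitA-GFP+ cells, where 16.0% of all genes were lower and 17.7% higher, and 26 lower and 3 higher in MC, where 22.2% were lower and 16.1% higher. The 3 comparisons share the whole liver array. The sterol enzymes had median log2 differences of -4.64 in HSC, -3.32 in MC and -3.57 in VitA-GFP+ cells, and the fatty acid enzymes -1.96 in HSC, -1.78 in MC and -1.63 in VitA-GFP+ cells. For 15 hepatocyte markers the summed intensity came to 6431 in HSC, 396 in MC and 11602 in VitA-GFP+ cells, against 156728 in whole liver. Its part in the differences from whole liver was not tested.

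Early steps of the pathway were unequal in how far they lay below whole liver. Acat2, the cytosolic thiolase that joins 2 acetyl-CoA, had log2 levels of 9.07 in HSC, 11.20 in MC and 10.55 in VitA-GFP+ cells, against 12.62 in whole liver. Hmgcs1, the cytosolic HMG-CoA synthase, had log2 levels of 10.94 in HSC, 12.63 in MC and 12.22 in VitA-GFP+ cells, against 13.32 in whole liver. By the probe sets used, both reached the 4-fold rule in HSC but not in MC. The MC difference of Acat2 ran from -3.66 to -1.42 over its 2 probe sets. By the probe set not used, Acat2 was thus 4-fold lower in MC too. Across the probe sets of Hmgcs1 the MC difference ran from -1.12 to 5.61, so its direction there depends on the probe set. The kinase Pmvk had log2 levels of 7.20 in HSC, 7.08 in MC and 7.91 in VitA-GFP+ cells, against 10.58 in whole liver. Mvk, the kinase before it, lay between -1.94 and -1.61 in log2 difference and did not reach the rule in any of the 3. Mvd, the decarboxylase that yields isopentenyl pyrophosphate, had log2 levels of 4.74 in HSC, 5.13 in MC and 5.70 in VitA-GFP+ cells, against 9.51 in whole liver. Idi1, the isomerase of that product, stood at log2 levels of 8.03 in HSC, 9.43 in MC and 8.34 in VitA-GFP+ cells, against 12.66 in whole liver.

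At the branch point the 2 prenyl synthases went opposite ways. Fdps, which makes farnesyl pyrophosphate, had log2 levels of 5.92 in HSC, 7.13 in MC and 7.66 in VitA-GFP+ cells, against 12.10 in whole liver. Ggps1, which extends that product to the geranylgeranyl donor of protein prenylation, had log2 levels of 10.15 in HSC, 9.22 in MC and 9.69 in VitA-GFP+ cells, against 7.84 in whole liver. It was the 1 sterol-pathway member above whole liver in all 3 fractions, by log2 differences of 2.31 in HSC, 1.38 in MC and 1.85 in VitA-GFP+ cells, and 4-fold in HSC alone. Its 4 probe sets spread from 0.20 to 2.31 in HSC and from -0.23 to 1.38 in MC. Downstream of the branch, squalene synthase Fdft1 had log2 levels of 4.40 in HSC, below that array's median, against 11.32 in whole liver. Its log2 level was 8.0 in MC and 7.74 in VitA-GFP+ cells. Sqle and Lss, the enzymes after it, had log2 differences of -4.71 and -3.77 in HSC, -3.86 and -3.39 in MC, and -3.52 and -3.35 in VitA-GFP+ cells.

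The later enzymes, which turn lanosterol into cholesterol, were all lower than in whole liver by the 4-fold rule in each of the 3 fractions. Tm7sf2, a sterol reductase, was the most extreme of them, at log2 levels of 5.62 in HSC, 5.89 in MC and 7.10 in VitA-GFP+ cells, against 12.37 in whole liver. Nsdhl, the sterol dehydrogenase that removes a carboxyl group, stood at log2 levels of 6.45 in HSC, 6.77 in MC and 7.21 in VitA-GFP+ cells, against 11.06 in whole liver. Hsd17b7, the reductase of the same demethylation complex, had log2 levels of 7.42 in HSC, 7.27 in MC and 7.43 in VitA-GFP+ cells, against 11.06 in whole liver. Ebp, the sterol isomerase, stood at log2 levels of 7.86 in HSC, 7.90 in MC and 8.84 in VitA-GFP+ cells, against 12.57 in whole liver. The sterol desaturase Sc5d had log2 levels of 6.79 in HSC, 8.95 in MC and 7.67 in VitA-GFP+ cells, against 11.79 in whole liver. Dhcr7, the terminal reductase, had log2 levels of 8.60 in HSC, 9.17 in MC and 9.25 in VitA-GFP+ cells, against 12.20 in whole liver. For Msmo1, the methyl oxidase, the second probe set went the other way, with log2 differences of -5.09 and 0.93 in HSC and -2.43 and 4.16 in MC.

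Of the 6 genes of sterol sensing and transport, Stard4 and Srebf1 were 4-fold lower in each fraction, and Insig1 and Scap in HSC alone, by the probe sets used. Another Insig2 probe set had log2 levels of 9.02 in HSC, 8.45 in MC and 8.67 in VitA-GFP+ cells, against 11.30 in whole liver. By that probe set Insig2 was also 4-fold lower in each fraction. Srebf2 was the exception in direction, with log2 differences from whole liver of -0.73 in HSC, 1.44 in MC and 0.21 in VitA-GFP+ cells.

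Among the fatty acid enzymes the desaturases Scd1 and Scd2 were opposite. Scd1, the liver's main stearoyl-CoA desaturase, had log2 levels of 10.21 in HSC, 12.14 in MC and 11.83 in VitA-GFP+ cells, against 13.79 in whole liver. Scd2, the isoform that prevails outside the adult liver, had log2 levels of 11.36 in HSC, 11.56 in MC and 10.64 in VitA-GFP+ cells, against 8.09 in whole liver. Scd2 was thus higher in every fraction by the 4-fold rule, and Scd1 was lower by it in HSC, for the probe sets used. Another Scd1 probe set had log2 levels of 3.76 in HSC, 4.39 in MC and 5.14 in VitA-GFP+ cells, against 10.86 in whole liver. By that probe set Scd1 was lower by the 4-fold rule in every fraction. Probe sets of Scd2 spread from -0.10 to 3.27 in HSC, from -0.36 to 2.55 in VitA-GFP+ cells and from 0.15 to 3.48 in MC. Fasn had log2 levels of 7.21 in HSC, 7.45 in MC and 7.57 in VitA-GFP+ cells, against 10.37 in whole liver. Acss2, the acetyl-CoA synthetase that uses free acetate, had log2 levels of 7.25 in HSC, 6.39 in MC and 8.21 in VitA-GFP+ cells, against 11.80 in whole liver. Elovl6, which lengthens palmitate to stearate, differed most of the 8, with log2 differences of -6.56 in HSC, -6.86 in MC and -5.23 in VitA-GFP+ cells. By its least extreme probe set the differences were -1.62 in HSC, -1.54 in MC and -2.06 in VitA-GFP+ cells. Acly, which splits citrate to acetyl-CoA, Acaca, the acetyl-CoA carboxylase, and Me1, which supplies NADPH, lay between -1.91 and -0.05 and did not reach the rule. Those are values of the probe sets used. A second Me1 probe set had log2 levels of 7.10 in HSC, 5.77 in MC and 6.25 in VitA-GFP+ cells, against 9.55 in whole liver. By it Me1 was lower by the 4-fold rule in every fraction. Another probe set of Acly was lower by the rule in MC and VitA-GFP+ cells but not in HSC.

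**Figure D2:**
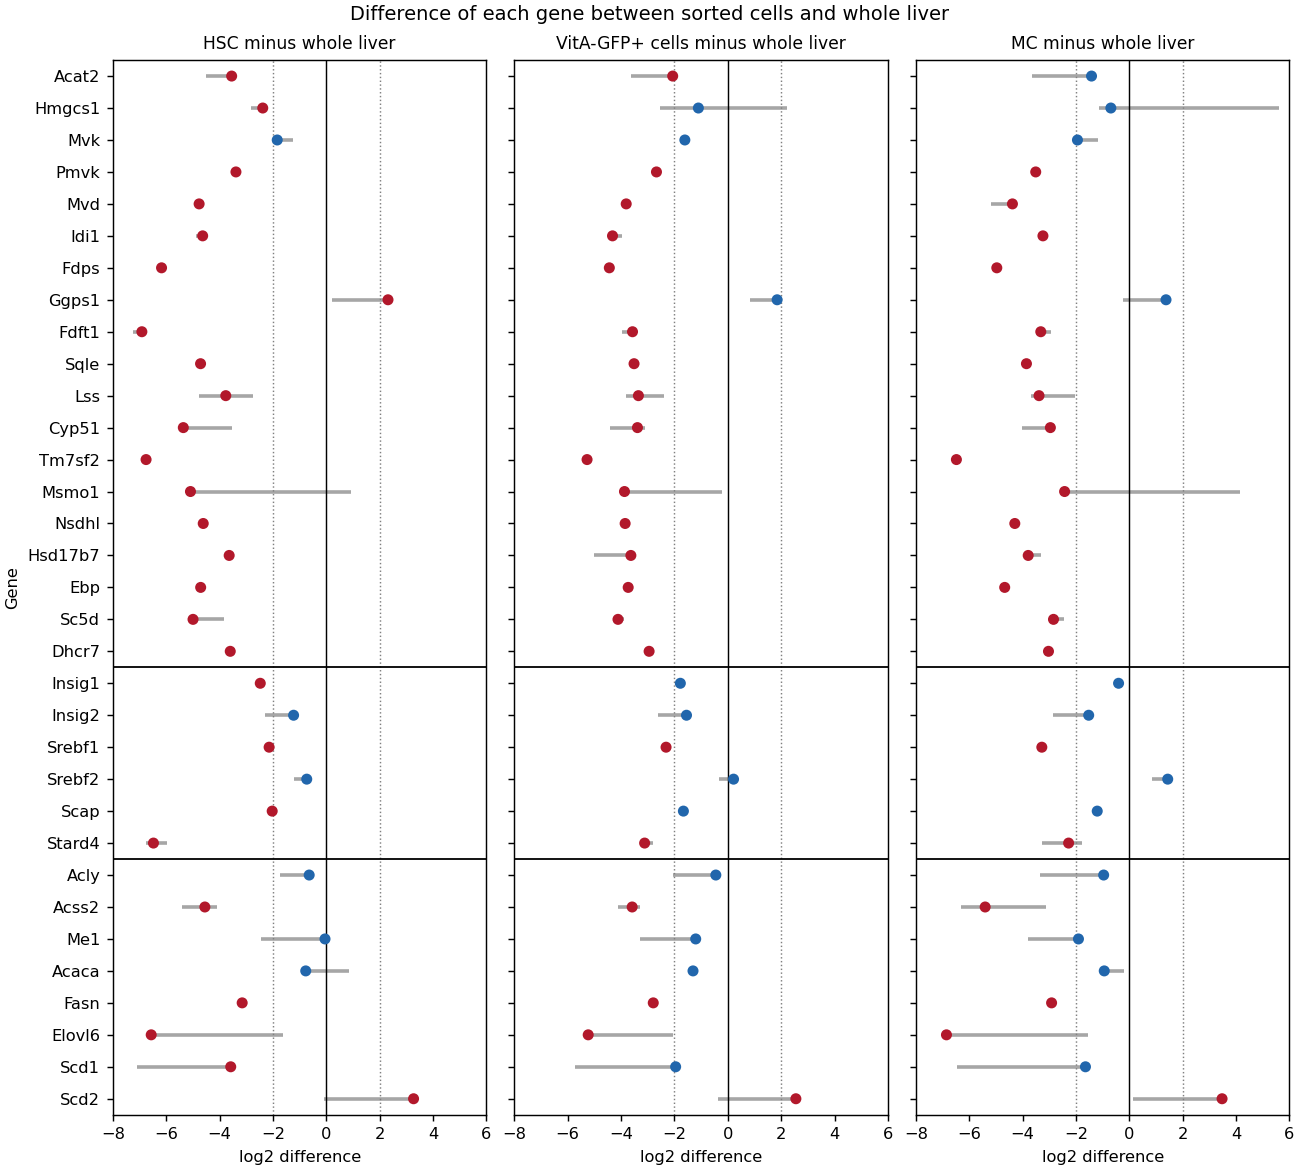
Log2 difference of each gene (rows) between HSC, VitA-GFP+ cells or MC with no injury named and whole liver, 1 array each. Points are the probe set used, red where the difference is at least 2 in size, grey bars span the gene's probe sets at or above the array median, and dotted lines mark the 4-fold rule. Points lie right of 0 for 2 genes in HSC, 3 in MC and 3 in VitA-GFP+ cells, with Ggps1 and Scd2 among them in all 3 panels.

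Between the fractions with no injury named, HSC had lower levels of several sterol genes. HSC minus MC gave a median log2 difference of -0.38, with 8 members 4-fold lower and 0 higher, where 4.77% of all genes were lower and 4.20% higher. At 2-fold 12 were lower and 2 higher, where 9.51% of all genes were lower and 10.2% higher. Stard4, a carrier of cholesterol within cells, had log2 levels of 5.36 in HSC against 9.56 in MC. Fdft1 had log2 levels of 4.40 in HSC against 8.0 in MC, and Cyp51, the lanosterol demethylase, 6.70 against 9.10. Msmo1, Sc5d and Acat2, 3 further sterol enzymes, had log2 differences of -2.67, -2.15 and -2.13. Srebf2, which encodes SREBP2, and Insig1, which retains it, had log2 differences of -2.17 and -2.07. The remaining 25 members lay between -1.94 (Scd1) and 1.86 (Me1). Probe sets of Stard4 ran from -4.98 to -2.70.

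Against VitA-GFP+ cells the same HSC array gave a median log2 difference of -0.76, with Stard4 (-3.36) and Fdft1 (-3.34) 4-fold lower and no member higher, where 7.11% of all genes were lower and 2.87% higher. At 2-fold 11 were lower and 1 higher, where 13.7% of all genes were lower and 7.70% higher. Cyp51 at -1.97, Fdps at -1.73, Scd1 at -1.63, and Acat2 and Tm7sf2, both at -1.48, followed in log2 difference. MC against VitA-GFP+ cells had a median of -0.08 with no member 4-fold apart, where 6.60% of all genes were lower and 2.91% higher. At 2-fold 3 were lower and 5 higher, where 14.5% of all genes were lower and 7.99% higher. Its widest log2 differences were Acss2 at -1.82, Elovl6 at -1.62, Msmo1 at 1.45, Insig1 at 1.38, Sc5d at 1.27 and Srebf2 at 1.22. Those are values of the probe sets used, and other probe sets of Msmo1, Hmgcs1 and Acss2 were over 4-fold apart. For Msmo1 the log2 levels of the second probe set were 10.84 in MC and 6.46 in VitA-GFP+ cells. Summed endothelial marker intensity was 449 in HSC and 2405 in MC, against 20662 in VitA-GFP+ cells, and summed macrophage marker intensity was 385 in HSC and 1206 in MC, against 9203. The part of these cells in the differences was not tested.

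In biliary fibrosis, 7 of the 19 sterol enzymes and Stard4 were at least 2-fold higher in PF, 7 of 19 sterol and 4 of 8 fatty acid enzymes were so in HSC, and MC had members on both sides. The PF pair is the one with a sham array and lies within 1 series of sample codes. Here 0 of 33 members were 4-fold higher or lower, where 3.77% of all genes were higher and 1.58% lower. At 2-fold, 8 members were higher and 0 lower, where 9.23% of all genes were higher and 6.76% lower. The median log2 difference was 0.32, against -0.01 over all genes. It was 0.69 over the 19 sterol enzymes, -0.10 over the 6 sensing and transport genes and 0.09 over the 8 fatty acid enzymes.

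Of the 8 members 2-fold higher in fibrotic PF, 7 were sterol enzymes. Fdft1, the first enzyme committed to sterols, had log2 levels of 10.19 in fibrotic PF against 8.40 in sham PF. Sqle, the squalene epoxidase, had log2 levels of 8.66 in fibrotic PF against 7.10 in sham PF, and Lss, which closes the ring to lanosterol, 8.03 against 6.73. These 3 act one after another, and Cyp51, which acts next, had log2 levels of 10.21 against 8.97. Msmo1 at 7.99 against 6.81, and Acat2 at 12.09 against 10.95, completed the enzymes whose levels in sham PF were above the array median. Fdps had log2 levels of 6.54 in fibrotic PF and 4.81 in sham PF, where it was below the array median. Stard4 had log2 levels of 8.91 against 7.66. The members furthest below 0 were Ggps1 at -0.88, Mvk at -0.68 and Insig1 at -0.65, and probe sets of Ggps1 ran from -3.76 to -0.61. Among fatty acid enzymes the log2 differences ran from -0.17 (Acaca) to 0.99 (Me1), and Fasn was at 0.10.

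In the HSC pair 5 members were 4-fold higher and 0 lower, where 5.90% of all genes were higher and 3.13% lower. At 2-fold, 12 were higher and 1 lower, where 15.0% of all genes were higher and 8.86% lower. The median log2 difference was 0.66, against 0.13 over all genes, and 28 of 33 members were above 0. Fdft1 had log2 levels of 8.93 in fibrotic HSC against 4.40 in HSC with no injury named, where it lay below that array's median. Its 2 probe sets at or above an array median gave log2 differences of 3.67 and 4.53. Elovl6 had log2 levels of 8.32 in fibrotic HSC against 5.35 in HSC with no injury named, and Stard4 7.94 against 5.36, again both below the median of the second array. The median over all probe sets of Elovl6, dim ones included, gave a log2 difference of -0.12. Cyp51 stood at log2 levels of 9.14 against 6.70. Acss2 had log2 levels of 9.29 against 7.25. For all 5, HSC with no injury named were the lowest or second-lowest of the 8 arrays.

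A further 7 members were 2-fold but not 4-fold higher in fibrotic HSC. The sterol enzymes among them were Lss at 1.80, Sqle at 1.79, Acat2 at 1.78, Mvd at 1.63 and Hsd17b7 at 1.45 in log2 difference. The fatty acid enzymes were Scd1 at 1.74 and Fasn at 1.07. Probe sets of Lss spread from 0.22 to 2.64, those of Hsd17b7 from -0.21 to 1.45 and those of Scd1 from 1.74 to 3.34. Srebf2 was 2-fold lower, with log2 levels of 8.25 in fibrotic HSC against 9.39 in HSC with no injury named. Idi1 and Fdps, which lead to farnesyl pyrophosphate, had log2 differences of -0.07 and -0.02, and the second probe set of Idi1 gave 1.91. Ggps1 at 0.45 and Scd2 at -0.47 had probe sets on both sides of 0. Those of Ggps1 ran from -1.30 to 1.02 and those of Scd2 from -3.60 to 2.89. Scd2 was thus over 4-fold lower or over 4-fold higher by probe sets other than the one used.

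In the MC pair members lay on both sides of 0. By the 4-fold rule 3 were higher and 1 lower for the probe sets used, where 6.20% of all genes were higher and 4.68% lower. At 2-fold 6 were higher and 5 lower, where 17.2% of all genes were higher and 12.9% lower. The median log2 difference was 0.29, close to the 0.25 over all genes. Me1 had log2 levels of 11.92 in fibrotic MC against 8.13 in MC with no injury named. By the probe set used these were the highest and the lowest of its 8 arrays. By its second probe set whole liver was the highest. Acss2 had log2 levels of 9.40 in fibrotic MC against 6.39, where the second value was the lowest of the 8 arrays. Fdft1 had log2 levels of 10.20 in fibrotic MC against 8.0 in MC with no injury named, but its probe sets ran from -1.42 to 2.20. Fdps was 4-fold lower, with log2 levels of 5.11 in fibrotic MC, below the array median, against 7.13, while the mean with its second probe set, dim on every array, gave a log2 difference of 0.29. Sqle at 1.88, Elovl6 at 1.85 and Srebf1 at 1.82 were 2-fold higher in log2 difference, with Elovl6 probe sets from -1.44 to 1.85. Srebf2 at -1.97, Idi1 at -1.82, Msmo1 at -1.26 and Stard4 at -1.16 were 2-fold lower. Probe sets of Stard4 ran from -3.41 to 0.21, those of Msmo1 from -4.21 to -1.26, those of Idi1 from -1.82 to -0.15 and those of Me1 from 1.27 to 3.80.

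**Figure D3:**
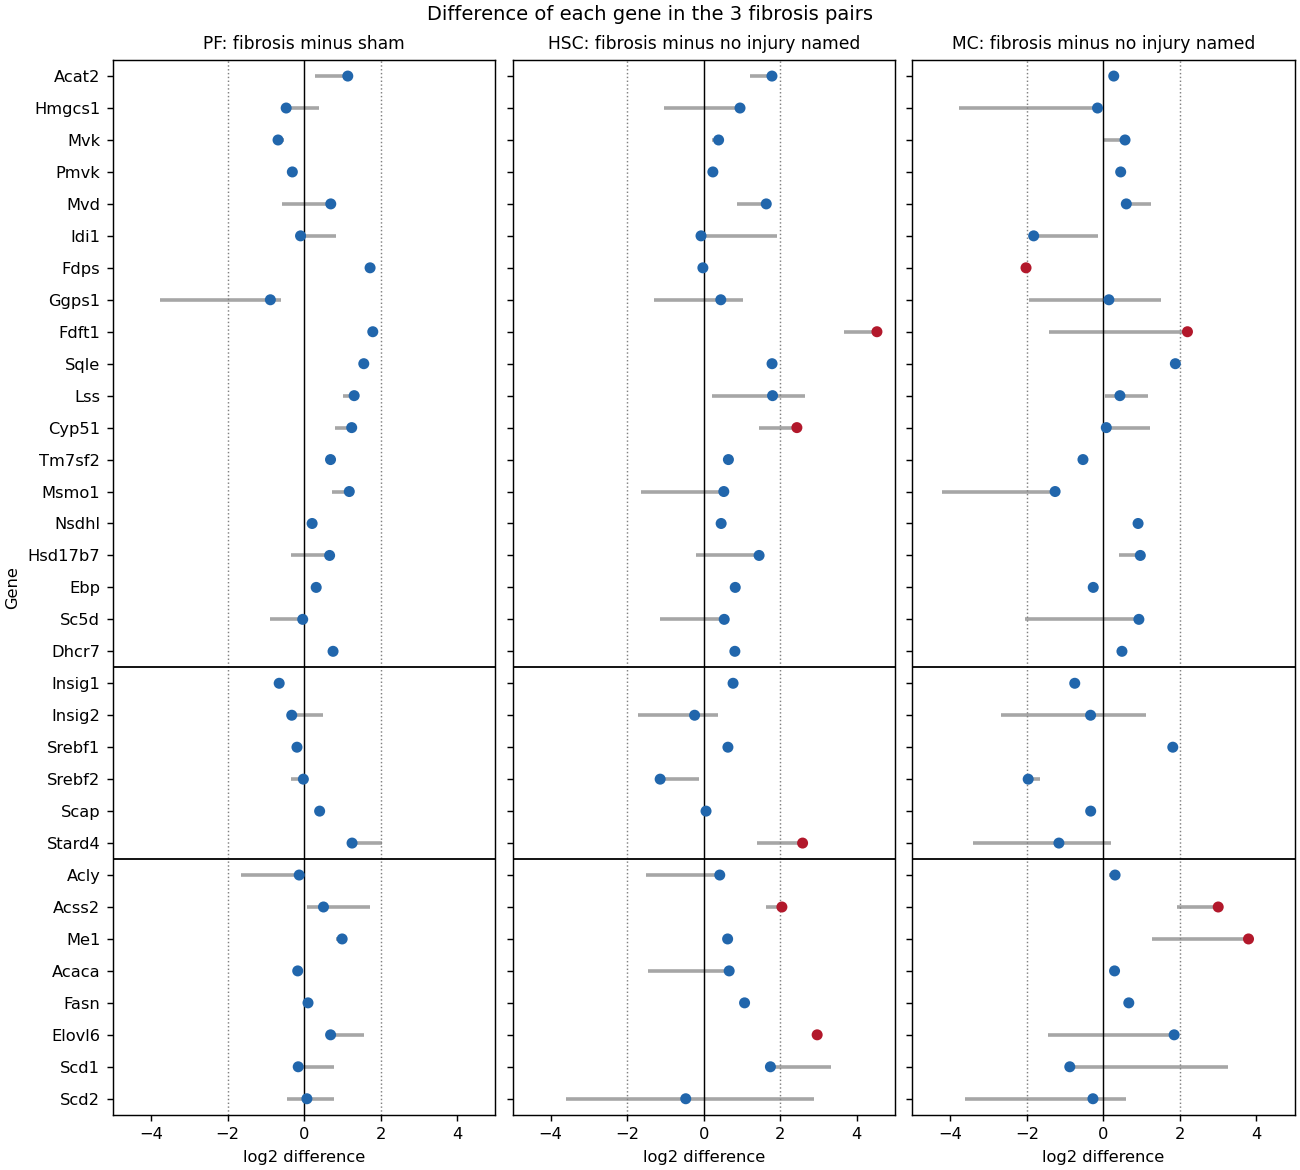
Log2 difference of each gene (rows) between cells of biliary fibrosis and the sham PF, HSC or MC array they were set against, 1 array each. Points are the probe set used, red where the difference is at least 2 in size, grey bars span the gene's probe sets at or above the array median, and dotted lines mark the 4-fold rule. Red points number 0 in PF, 5 in HSC and 4 in MC, where Fdps is the one to the left.

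Set side by side, the 3 pairs had 13 members (39.4%) above 0 in each, where 23.5% of all genes were, and 3 (9.09%) below 0 in each, where 15.5% of all genes were. Fdft1 and Sqle, which act in succession, were 2-fold higher in all 3 pairs, that is 6.06% of the members, against 1.74% of all genes. For Fdft1 in MC this holds for the probe set used, while another bright one gave -1.42 in log2 difference. The PF and HSC pairs shared 6 members that were 2-fold higher in both, Acat2, Fdft1, Sqle, Lss, Cyp51 and Stard4, or 18.2% against 3.74% of all genes. The HSC and MC pairs shared 4, Fdft1, Sqle, Acss2 and Elovl6, or 12.1% against 7.07% of all genes. By the probe sets used, no pair reached 2-fold for 15 members (45.5%), where 53.2% of all genes reached it in none. Fdps, Msmo1 and Stard4 (9.09% of members, against 1.56% of all genes) were 2-fold lower in the MC pair and 2-fold higher in at least 1 of the others.

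The array levels behind these statements are given for the sterol members that recur. Fdft1 had log2 levels of 8.93 in fibrotic HSC, 4.40 in HSC, 10.20 in fibrotic MC, 8.0 in MC, 10.19 in fibrotic PF, 8.40 in sham PF, 7.74 in VitA-GFP+ cells and 11.32 in whole liver. The array of HSC with no injury named is the low one. Sqle had log2 levels of 7.88 in fibrotic HSC, 6.09 in HSC, 8.83 in fibrotic MC, 6.95 in MC, 8.66 in fibrotic PF, 7.10 in sham PF, 7.29 in VitA-GFP+ cells and 10.81 in whole liver. All 3 fibrotic arrays lay above all 4 other sorted arrays for Sqle and Fdft1, as they did for 5 members in all, the others being Cyp51, Dhcr7 and Me1. By the other bright probe set of Fdft1 the groups overlapped, with log2 levels of 7.35 in fibrotic MC against 8.77 in MC. The groups overlapped by another probe set of Cyp51 too, with log2 levels of 6.60 in fibrotic HSC against 7.28 in sham PF. They also did by the second probe set of Me1, at 6.88 in fibrotic PF against 7.10 in HSC with no injury named. Over all genes 7.40% had all 3 fibrotic arrays above the 4 other sorted arrays. Idi1 was the 1 member with all 3 fibrotic arrays below the other 4, against 3.50% of all genes. For Idi1 this holds for the probe set used, which names 2 genes. By its other probe set the groups overlapped, with log2 levels of 9.08 in fibrotic PF against 8.26 in sham PF. Lss had log2 levels of 7.64 in fibrotic HSC, 5.84 in HSC, 6.66 in fibrotic MC, 6.23 in MC, 8.03 in fibrotic PF, 6.73 in sham PF, 6.26 in VitA-GFP+ cells and 9.61 in whole liver. For Lss fibrotic MC lay below sham PF, so the fibrotic and other sorted arrays overlapped. Cyp51 had log2 levels of 9.14 in fibrotic HSC, 6.70 in HSC, 9.18 in fibrotic MC, 9.10 in MC, 10.21 in fibrotic PF, 8.97 in sham PF, 8.67 in VitA-GFP+ cells and 12.06 in whole liver. The lone low array was again HSC with no injury named, and MC lay just under fibrotic HSC. Fdps had log2 levels of 5.90 in fibrotic HSC, 5.92 in HSC, 5.11 in fibrotic MC, 7.13 in MC, 6.54 in fibrotic PF, 4.81 in sham PF, 7.66 in VitA-GFP+ cells and 12.10 in whole liver, so that its fibrotic and other sorted arrays overlapped.

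The same was done for 3 of the enzymes that feed fatty acids. Acss2 had log2 levels of 9.29 in fibrotic HSC, 7.25 in HSC, 9.40 in fibrotic MC, 6.39 in MC, 10.23 in fibrotic PF, 9.73 in sham PF, 8.21 in VitA-GFP+ cells and 11.80 in whole liver. Me1 had log2 levels of 10.61 in fibrotic HSC, 9.99 in HSC, 11.92 in fibrotic MC, 8.13 in MC, 10.27 in fibrotic PF, 9.28 in sham PF, 8.83 in VitA-GFP+ cells and 10.04 in whole liver. For Me1 all 3 fibrotic arrays exceeded the other 5, whole liver included, and for Acss2 sham PF lay above fibrotic HSC and fibrotic MC. Elovl6 had log2 levels of 8.32 in fibrotic HSC, 5.35 in HSC, 6.91 in fibrotic MC, 5.06 in MC, 8.51 in fibrotic PF, 7.82 in sham PF, 6.68 in VitA-GFP+ cells and 11.92 in whole liver. Sham PF were above fibrotic MC for this gene.

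Of the 6 sensors and carriers, 1 was 2-fold higher in each pair, Stard4 in PF and HSC and Srebf1 in MC. In HSC 1 was 2-fold lower, and in MC 2 were. Over all genes 9.23%, 15.0% and 17.2% were 2-fold higher in the PF, HSC and MC pairs, and 6.76%, 8.86% and 12.9% lower. Srebf2 had log2 levels of 8.25 in fibrotic HSC, 9.39 in HSC, 9.60 in fibrotic MC, 11.56 in MC, 8.63 in fibrotic PF, 8.65 in sham PF, 10.34 in VitA-GFP+ cells and 10.12 in whole liver. It was 2-fold lower in the fibrotic array of the HSC and MC pairs and differed by -0.02 in PF, and MC with no injury named, not whole liver, was its highest array. Srebf1, which encodes SREBP1, had log2 levels of 9.0 in fibrotic HSC, 8.37 in HSC, 9.05 in fibrotic MC, 7.24 in MC, 9.21 in fibrotic PF, 9.40 in sham PF, 8.20 in VitA-GFP+ cells and 10.52 in whole liver. MC with no injury named were its lowest array. Insig1, itself a target of SREBP, had log2 levels of 10.55 in fibrotic HSC, 9.79 in HSC, 11.11 in fibrotic MC, 11.86 in MC, 10.88 in fibrotic PF, 11.53 in sham PF, 10.48 in VitA-GFP+ cells and 12.26 in whole liver. Its log2 differences in the HSC, MC and PF pairs were 0.77, -0.75 and -0.65, all short of 2-fold. Insig2 differed by -0.24, -0.33 and -0.32 in the same pairs, and Scap by 0.06, -0.33 and 0.41. Probe sets of Insig2 ran from -1.73 to 0.38 in HSC, from -2.68 to 1.13 in MC and from -0.32 to 0.50 in PF. Stard4 had log2 levels of 7.94 in fibrotic HSC, 5.36 in HSC, 8.40 in fibrotic MC, 9.56 in MC, 8.91 in fibrotic PF, 7.66 in sham PF, 8.72 in VitA-GFP+ cells and 11.84 in whole liver, with HSC with no injury named again low.

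**Figure D4:**
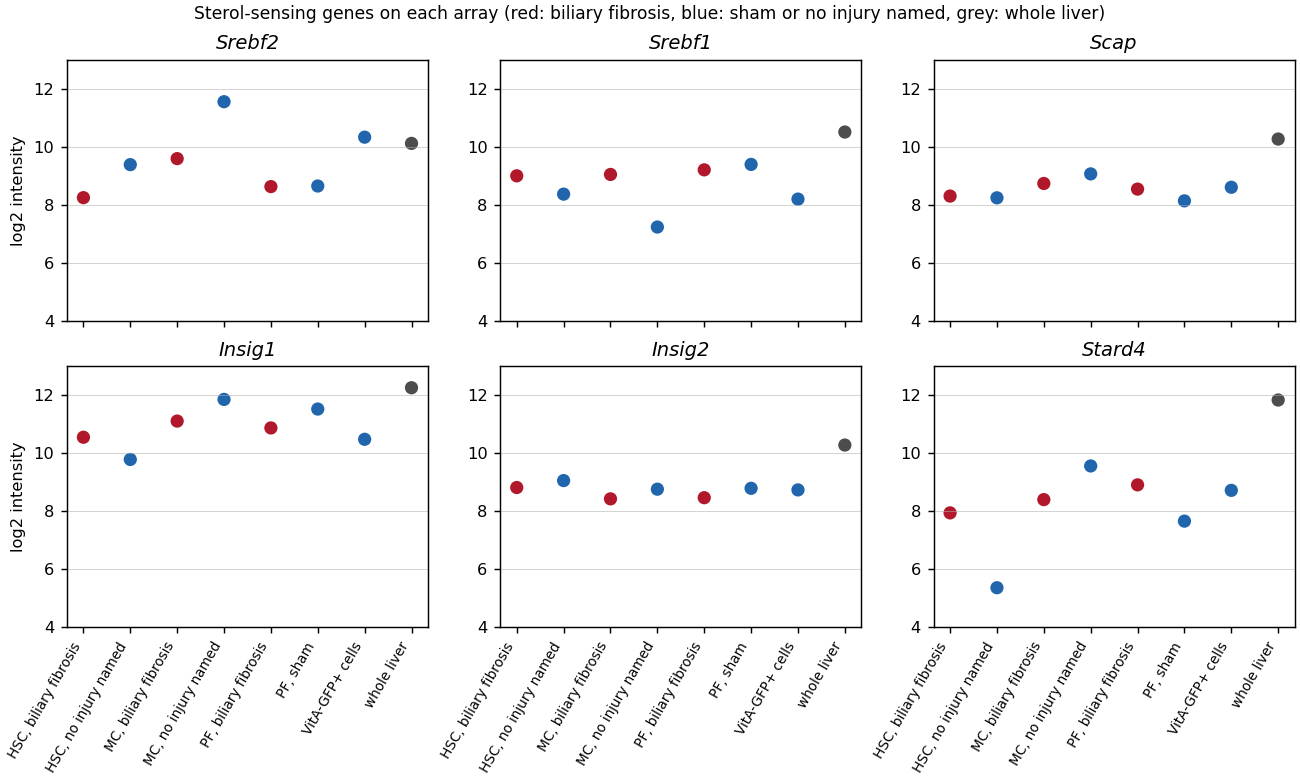
Log2 intensity of 6 genes of sterol sensing and transport on each of the 8 arrays, 1 point per array, with cells of biliary fibrosis in red, sorted cells after sham surgery or with no injury named in blue, and whole liver in grey. Srebf2 is highest in MC with no injury named (11.56) and lowest in fibrotic HSC (8.25), and Stard4 is lowest in HSC with no injury named (5.36).

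Markers of other cells moved with the same fibrosis pairs. Hepatocyte markers, summed over 15 genes, were at 18637 in fibrotic PF against 4659 in sham PF, at 18536 in fibrotic HSC against 6431 in HSC, and at 1221 in fibrotic MC against 396 in MC. Of the 15, 12 were 4-fold higher and 1 lower in the PF pair, 10 higher in the HSC pair, and 3 higher for MC. Cholangiocyte markers, 12 genes, summed to 16123 in fibrotic PF against 1546 in sham PF and to 3830 in fibrotic HSC against 212 in HSC, with 11 and 8 of 12 genes 4-fold higher. Their sum was 7400 in fibrotic MC against 17160 in MC, where the mesothelium shares keratins of the list. Macrophage markers, 12 genes, summed to 8751 in fibrotic PF against 716 in sham PF, 11991 in fibrotic HSC against 385 in HSC, and 7604 in fibrotic MC against 1206 in MC, with 6, 9 and 7 genes 4-fold higher. Portal fibroblast markers summed to 9554 in fibrotic HSC against 411 in HSC, with 10 of 12 genes 4-fold higher. Mesothelial markers, 10 genes, summed to 9868 in fibrotic PF against 3747 in sham PF, with 4 genes 4-fold higher and 0 lower. Their sum was 1107 in fibrotic HSC against 160 in HSC, with 1 gene 4-fold higher and 0 lower. Proliferation genes, 12 in number, were 4-fold higher for 7 genes in the PF pair and 6 in the HSC pair, against 1 higher and 2 lower in the MC pair. The part of these cells in the differences of the members was not tested, nor was that of the 3′ to 5′ ratio, which in the HSC pair was 5.68 in fibrotic HSC against 1.75 in HSC, and in the MC pair 13.8 in fibrotic MC against 2.01 in MC. In the PF pair the ratio was 10.2 in fibrotic PF against 13.2 in sham PF.

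**Figure D5:**
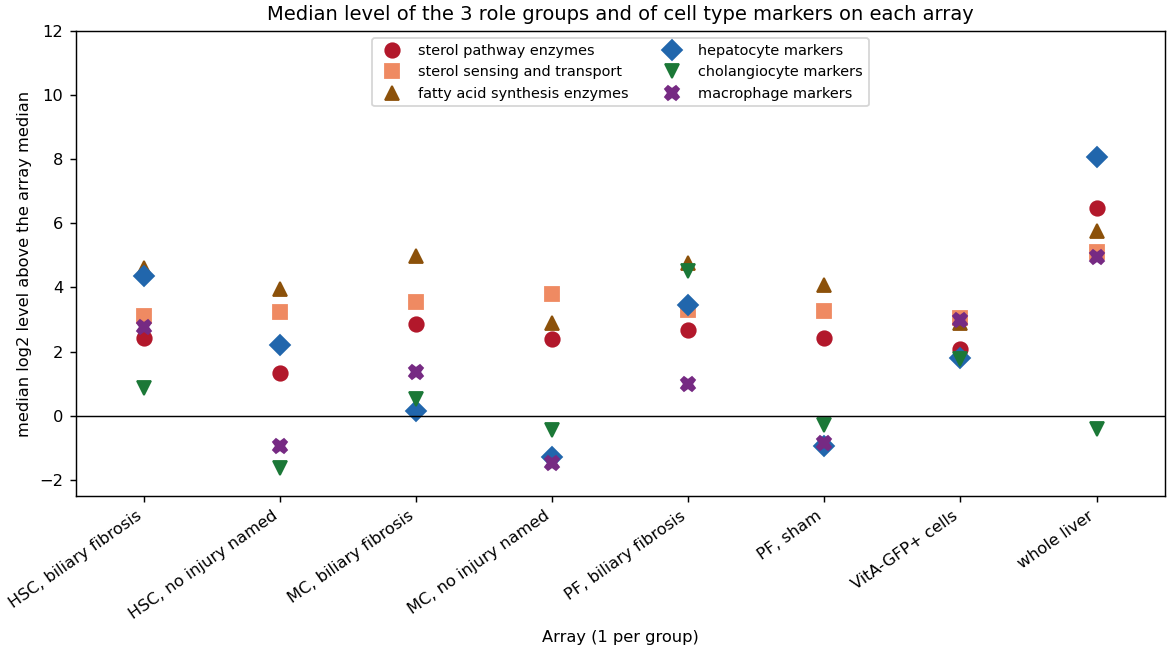
Median log2 level above the array median of the 3 role groups of members and of hepatocyte, cholangiocyte and macrophage markers on each array, 1 array per group. Medians of the 3 marker lists lie higher on the array of biliary fibrosis than on the paired array in PF, HSC and MC, although the summed intensity of cholangiocyte markers is lower in fibrotic MC, and the sterol enzymes are lowest in HSC with no injury named.

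Sham PF and VitA-GFP+ cells, both without fibrosis, belong to different series of sample codes, neither of which is that of HSC and MC with no injury named. Their arrays also differed in Xist, at log2 levels of 11.96 in sham PF against 4.47 in VitA-GFP+ cells, and in summed endothelial markers, at 2822 against 20662, so series, sex-linked expression and cell mix cannot be told apart between them. Only Fdps was 4-fold lower in sham PF (-2.84) and 0 members were higher, where 3.84% of all genes were lower and 1.97% higher. The median log2 difference was 0.32. At 2-fold, 6 members were higher and 4 lower in sham PF, where 9.14% of all genes were higher and 11.9% lower. Hsd17b7 at 1.86, Srebf2 at -1.69 and Acss2 at 1.52 were the next in size. Subtracting this log2 difference gene by gene gave, in the HSC pair, 0.53 for Acss2, 3.65 for Stard4 and 3.88 for Fdft1, and in the MC pair 0.82 for Fdps. These values do not measure the step between series that the HSC and MC pairs cross.

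Within biliary fibrosis the 3 arrays of sorted fractions belong to 1 series of sample codes. HSC minus PF had a median log2 difference of -0.35 and no member 4-fold apart, where 1.95% of all genes were higher and 4.10% lower. At 2-fold 0 were higher and 4 lower, where 7.92% of all genes were higher and 9.84% lower. The widest log2 differences in HSC were -1.26 for Fdft1, -1.24 for Acat2, -1.08 for both Cyp51 and Hsd17b7, 0.98 for Ggps1 and -0.97 for Stard4, and probe sets of Hsd17b7 ran from -1.08 to 0.54. MC minus PF had a median of -0.25, and Sc5d was the 1 member 4-fold higher, where 2.22% of all genes were higher and 5.74% lower. At 2-fold 2 were higher and 6 lower, where 9.49% of all genes were higher and 13.8% lower. Sc5d had log2 levels of 9.88 in fibrotic MC against 6.79 in fibrotic PF, with probe sets from 0.12 to 3.09. Below it, Hsd17b7 at -1.71 (probe sets from -1.71 to 1.13), Me1 at 1.65, Elovl6 at -1.59, Tm7sf2 at -1.58 and Fdps at -1.43 followed in log2 difference. HSC minus MC had a median of -0.07, with Sc5d 4-fold lower at -2.55, where 5.73% of all genes were higher and 4.13% lower. At 2-fold 3 were higher and 4 lower, where 14.6% of all genes were higher and 11.2% lower. Next came Elovl6 at 1.41, Srebf2 at -1.35, Me1 at -1.31, Fdft1 at -1.27 and Ggps1 at 1.24, with Fdft1 probe sets from -1.27 to 0.75 and those of Me1 from -1.31 to 0.56. Each of these comparisons shares an array with the other two.

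Genes next to the pathway were followed by lists of the same kind. Over all genes, 3.77%, 5.90% and 6.20% were 4-fold higher in the PF, HSC and MC pairs, and 1.58%, 3.13% and 4.68% lower. Of 13 genes for sterol efflux, ester storage and lysosomal release, 1 was 4-fold higher in the PF pair, 2 in the HSC pair and 1 for MC, with 0 lower in each. Nceh1, a hydrolase of cholesterol esters, had log2 levels of 10.86 in fibrotic PF against 7.78 in sham PF and 8.51 in fibrotic HSC against 5.56 in HSC. Soat1, which esterifies cholesterol for storage, had log2 levels of 10.71 in fibrotic HSC against 8.33 in HSC and 11.50 in fibrotic MC against 7.40 in MC. Of 8 bile acid synthesis genes, Cyp27a1, the sterol hydroxylase of the acidic pathway, was 4-fold lower in the PF pair, with log2 levels of 8.11 in fibrotic PF against 10.52 in sham PF. Cyp7b1, the oxysterol hydroxylase, was 4-fold higher in the HSC pair at log2 levels of 9.51 against 5.12, and in the MC pair at 8.64 against 6.57. Of 8 genes that process or turn over SREBP, 0 were 4-fold apart in the PF and HSC pairs and 1 was higher in the MC pair: Paqr3, an anchor of SCAP in the Golgi, at log2 levels of 8.29 in fibrotic MC against 5.13 in MC. Of 21 other genes of lipogenesis and triglyceride synthesis, 0 were 4-fold apart in the PF pair and 1 was higher in each of the others. These were Mlxipl, the carbohydrate-response factor ChREBP, at log2 levels of 5.80 in fibrotic HSC against 3.62 in HSC, and Acsl1, an acyl-CoA synthetase, at 9.32 in fibrotic MC against 7.19 in MC.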

How the data were processed

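RNA was amplified from 20 ng of total RNA and hybridised to Affymetrix mouse arrays, per the labels' protocols. The deposited intensity values are on the linear scale and were made by the authors with Partek and RMA, as the submitters' processing notes name them. Their versions, and whether the 8 arrays were normalised jointly, are not given in the sources used here. The 2 deposited tables hold the same values. The design had assumed log2 values; log2 was therefore taken here of the deposited intensities, and levels were not set against each other between probe sets.

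Samples were grouped by the labels. Of 45101 probe sets, 64 are controls. Each of 20679 genes stands for its brightest probe set, by mean log2 value over the 8 arrays, chosen among several for 24 of the 33 members (79 probe sets in all), and whole liver weighs on that choice because it is the brightest array for most members. The 4-fold rule asks for a log2 difference of at least 2 with the brighter value reaching its array's median over non-control probe sets, and the 2-fold rule for a difference of 1 in place of 2. With 1 array per group no test was made. Ranges over probe sets include those at or above that median on at least 1 of the 2 arrays, and are given where they lie over 1.5 apart or go both ways. Summed intensities are sums of linear values over a list. The text names the members called at 4-fold, or the 6 with the largest difference where fewer are called, and up to 4 genes of each other list.

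Promoter sequences are those of RefSeq (GRCm38.p6), matched by symbol. No array coordinates were used. The members, lists and rules were chosen with earlier results of these data known. The calling steps were tested on simulated data. Alternatives were a further quantile normalization, equal medians by a shift of every array, the mean or median over probe sets, unsuffixed probe sets only, 32 added before log2, other minimum levels, a 2-fold rule, and, for pairs that cross series of sample codes, subtraction of sham PF minus VitA-GFP+ cells. For the median of the PF pair, VitA-GFP+ cells were also set in place of sham PF. Computing used pandas 2.3.3, numpy 2.4.6 and, for plots, matplotlib 3.10.9, in Python 3.11.15.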

Additional observations from a re-analysis of the deposited data

Results flagged for a closer look

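For 3 members the fibrosis pairs went opposite ways, each pair being 1 array against 1, so that the difference between pairs was not tested. Fdps, the farnesyl pyrophosphate synthase, had a log2 difference of 1.72 in PF and -2.02 in MC. Msmo1, the sterol methyl oxidase, stood at 1.18 in PF and -1.26 in MC. Stard4, the cholesterol carrier, stood at 1.25 in PF and 2.58 in HSC, against -1.16 in MC. In MC the probe sets of Stard4 ran from -3.41 to 0.21, and those of Msmo1 from -4.21 to -1.26. Fdps was below the array median in sham PF and in fibrotic MC, and its level in sham PF differed from that in VitA-GFP+ cells by -2.84 on the log2 scale. The MC array with no injury named, the base of the MC pair, was high in both Xist and Ddx3y, and the part of this in the differences was not tested.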

How the results depend on the processing

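The median log2 difference over the members moved by less than 0.5 under all 89 alternatives run over 12 comparisons. In the PF pair it ran from 0.16 to 0.39, and in the HSC pair from 0.53 to 0.79. For the MC pair it ran from -0.05, with the difference of sham PF and VitA-GFP+ cells subtracted, to 0.46, with each array shifted to the same median, where the median of all genes became 0.42. Leaving out Idi1, Acaca and Msmo1, an alternative chosen after seeing the data, gave 0.36, 0.79 and 0.37 in the PF, HSC and MC pairs. Of the 91 member differences that reached 4-fold, all stayed within 0.5 under quantile normalization and under the median shift. The choice of probe set mattered more: 41 moved and 2 reversed with the mean of probe sets, 34 moved and 3 reversed with their median, and 10 of 82 moved and 3 reversed with unsuffixed probe sets, which measure 30 members. With 32 added before log2, 20 moved, and by subtraction 6 of 9 moved and 1 reversed.

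Reversed values were, for Elovl6 in the HSC pair, -0.12 with the median of probe sets. Fdps in the MC pair came to 0.29 with the mean or median, where a second probe set of at most 4.55 in log2 level, dim on every array, enters, and to 0.82 by subtraction. Fdft1 in the MC pair came to -1.42 with unsuffixed probe sets. Msmo1 against whole liver came to 0.93 in HSC with unsuffixed probe sets, and in MC to 4.16 with those and 0.87 with the mean or median. The Msmo1 reversals are those of its second probe set.

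Counts of 4-fold members that changed over 1.5 times are these. In the HSC pair 5 higher became 3 with the mean of probe sets, 1 with the median and 3 with 32 added. In the MC pair 3 higher became 5 after the median shift and 1 with the mean, the median or unsuffixed probe sets. The 1 lower there became 0 after the shift, with 32 added or at the 75th percentile as minimum level, 2 with unsuffixed probe sets and 4 with the median. Against whole liver, the 2 higher in HSC became 1 and the 1 higher in VitA-GFP+ cells became 0 with the mean or median, and the 1 higher in MC became 2 with unsuffixed probe sets. Of HSC minus MC, 8 lower became 5 with the mean and 4 with the median. Of HSC minus VitA-GFP+ cells, 2 lower became 1 with the mean, the median or the 75th percentile. MC minus VitA-GFP+ cells gained 1 higher with the mean, the median or unsuffixed probe sets, and 1 lower with the last. In biliary fibrosis the 1 higher in MC minus PF and the 1 lower in HSC minus MC became 0 with the mean or median, and 1 higher appeared in HSC minus MC with the median. The 2-fold rule gave higher and lower counts of 8 and 0 in the PF pair, 12 and 1 in the HSC pair, 6 and 5 for MC, 2 and 12 in HSC minus MC, 1 and 11 in HSC minus VitA-GFP+ cells, and 5 and 3 in MC minus VitA-GFP+ cells. This rule gave 0 and 4 in HSC minus PF, 2 and 6 in MC minus PF and 3 and 4 in HSC minus MC of biliary fibrosis, and 2 and 3 higher against whole liver in VitA-GFP+ cells and MC. Except where stated, the cause of these changes was not tested.

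The number of arrays limits precision: with 1 array per group there was no replicate to leave out and no spread is known. No paired analysis was possible because each group has 1 array and no label ties arrays of different groups together. Fibrosis cannot be told apart from series of sample codes in the HSC and MC pairs, nor from sex-linked expression in the PF and MC pairs.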
